A study of Homo sapiens with 27 samples.

Results

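The inhibition of WNT secretion by IWP-2 was compared between an early and a later window during cardiac differentiation of HuES6, a human embryonic stem cell line in wide use. The comparison took 12 of 27 arrays, those of days 5, 6 and 8 of both time courses, and was chosen by label: the IWP-2 effect in time course 2 minus the IWP-2 effect in time course 1. The 12 arrays form 4 groups of 3, with 1 array a day in each group. In the early-window course (time course 2), the first group received IWP-2 on days 1 and 2 and the second received none. In the later-window course (time course 1), the third group received IWP-2 on days 2 and 3 and the fourth received none. All 4 groups shared the induction: for 24 hours from day 0 the medium held BMP4 (1 ng/ml), the CHIR compound named in the labels, an activator of WNT signalling, at 1 µM, and FGF2 (10 ng/ml), with insulin on the first day only. No figure for the dose of IWP-2 stands in the labels, which also place the IWP-2 array of day 6 in time course 1 in another series. Each window was run in 1 time course, so window and run cannot be told apart, and nothing in the labels says that days of a course came from separate cultures. The p-values below therefore measure only the spread between days and arrays.

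IWP-2 blocks Porcupine, an enzyme that attaches a fatty acid to WNT proteins, without which the cell cannot secrete them. In this kind of protocol a pulse of WNT signalling first turns pluripotent cells into mesoderm, and WNT inhibition afterwards lets cardiac mesoderm go on to heart muscle. Cardiomyocytes then switch on sarcomere proteins, calcium handling proteins and natriuretic peptides, whereas fibroblast-type mesenchyme is known for fibrillar collagens and small proteoglycans. MYH6 and MYH7 encode the fast and the slow myosin heavy chain of heart muscle, and ISL1 is a LIM homeodomain factor of heart progenitors that is turned down as ventricular muscle matures.

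Between 17391 and 19784 probes were detected per array at a p-value below 0.01, and mean signals ran from 293.1 to 349.5, except the IWP-2 array of day 8 in the early-window course, which was dimmer at 225.2. Levels below are log2 of the background corrected and quantile normalized intensity, whose highest value was the same on every array, 14.17. Of 8 cardiomyocyte markers, 8 were detected on all 3 arrays of each IWP-2 group and 2 on all 3 arrays of each group without inhibitor. Their summed linear level ran from 47885 to 52209 with IWP-2 in the early-window course and from 21055 to 40235 with IWP-2 in the later-window course, against 502 to 1274 without inhibitor in the early-window course and 1748 to 2797 in the later-window course. The summed level of 6 fibroblast markers was 1367 to 2705 with IWP-2 in the early-window course and 5918 to 17517 with IWP-2 in the later-window course, against 31208 to 56236 without it in the early-window course and 25961 to 46647 without it in the later-window course. DCN was not detected with IWP-2 in the early-window course, nor POSTN in the later-window course. The 4 smooth muscle markers summed to 16290 to 21112 with IWP-2 in the early-window course and 3635 to 12818 with IWP-2 in the later-window course, against 4963 to 7575 without inhibitor in the early-window course and 1842 to 3100 without inhibitor in the later-window course. The mean log2 level of 5 epicardial markers was 4.43 to 4.66 with IWP-2 in the early-window course and 5.08 to 6.69 with IWP-2 in the later-window course, against 6.25 to 6.89 without inhibitor in the early-window course and 6.33 to 7.42 without inhibitor in the later-window course, and TBX18, TCF21 and UPK3B were not detected on any early-window IWP-2 array. For 23 of the 71 named genes at least 1 of the 4 groups had no array with detection, and the effects and differences printed for them rest on levels at background there. In these bulk samples, fewer cells of a type and less RNA per cell cannot be told apart, and the part of cell composition in the results below was not tested.

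The IWP-2 effect differed between the windows for 288 of 12686 genes (limma, Benjamini-Hochberg adjusted p below 0.05). The effect was higher in the early-window course for 110 genes, 0.867% of those tested, and lower for 178, or 1.4%. The difference had the same sign on days 5, 6 and 8 for all 288, which choosing genes by a test over these same days favours. At an unadjusted p below 0.05 there were 2428 genes, and 265 of the 288 differed by at least 2-fold. The calls depended on days 5 and 6. Leaving out day 5 or day 6 in all groups left 0 genes, with 1678 and 1100 at an unadjusted p below 0.05. Leaving out day 8, which holds the dim array, gave 809, of which 253 were among the 288. Without pairing the arrays by day 82 genes passed, 73 of them among the 288. The split between directions depends on the scaling: with median scaling in place of quantile normalization 513 genes passed, of which 10.7% were higher in the early-window course against 38.2% in the main result, and the median of all genes moved by -0.21.

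Taken by course, IWP-2 changed 4702 genes in the early-window course, 37.1% of those tested (17.5% raised and 19.6% lowered), and 2498 genes in the later-window course, 19.7% (10.1% raised and 9.62% lowered). The mean effects spread wider across genes in the early-window course, with an SD of 0.97 against 0.68 in the later-window course, a ratio of 1.42. Across genes, which are not independent replicates, the mean effects correlated at r = 0.84 and had the same sign for 74.1%. The daily correlation across genes was 0.69 on day 5, 0.71 on day 6 and 0.82 on day 8. Of the 288 genes, 213 had effects of the same sign, or 74.0%, about the share over all genes. The plot of both effects shows them. Of the 110 genes higher in the early-window course, 50 passed as raised by IWP-2 in both courses and 49 passed in the early-window course only. Of the 178 lower genes, 81 passed as lowered in both and 72 in the early-window course only. A further 3 of the higher genes were raised in the early-window course and lowered in the later-window course, and 8 of the lower genes the other way round.

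**Figure D1:**
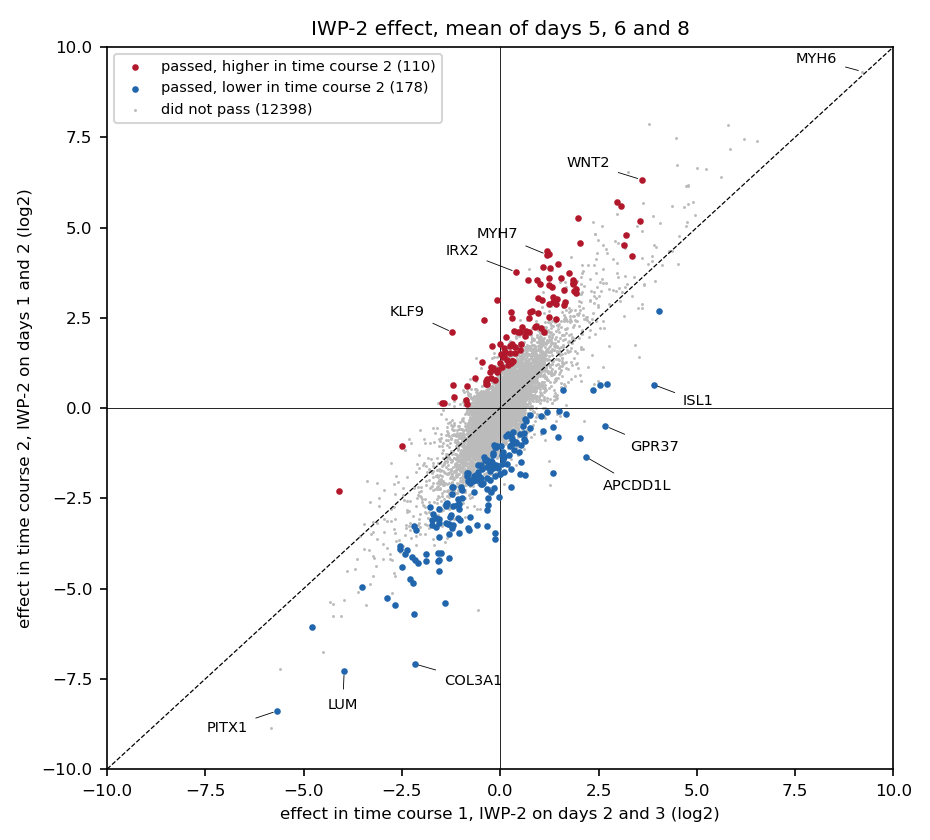
The vertical axis is the IWP-2 effect in the early-window course (time course 2) and the horizontal axis that in the later-window course (time course 1), each the mean over days 5, 6 and 8 of log2 IWP-2 minus no inhibitor. Each point is 1 of 12686 genes, red and blue points are the 110 higher and 178 lower genes that passed, and the dashed line marks equal effects. Red points with positive effects on both axes and blue points with negative effects on both lie farther from 0 on the vertical axis than on the horizontal one. The colours follow the sign of the difference, so this holds by definition. GPR37 and APCDD1L, blue with effects of opposite sign, lie farther from 0 on the horizontal axis, and MYH6 lies on the line.

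Among sarcomere genes, MYH7, MYL7, TCAP, ACTN2 and TTN had larger IWP-2 effects in the early-window course. Of 32 contractile genes tested, 5 passed as higher, against 0.867% of all genes, and 0 as lower, and the median difference of the list was 1.04 against 0.00 over all genes. In all, 14 of the 32 had all 3 daily effects of the early-window course above all 3 of the later-window course, against 12.2% of all genes. IWP-2 raised 31 of the 32 genes in the early-window course, against 17.5% of all genes, and 28 in the later-window course, against 10.1%. The 5 calls depended on the setting. They were 0 with arrays not paired by day, with the authors' values, without day 5 or without day 6. They were 1 without a single array of an uninhibited group or without an IWP-2 array of day 6, 3 without an IWP-2 array of day 5 and 16 without an IWP-2 array of day 8.

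MYH7, the slow heavy chain and a marker of ventricular muscle, had levels of 7.89, 7.89 and 9.85 with IWP-2 in the early-window course and 4.67, 5.32 and 6.70 with IWP-2 in the later-window course, on days 5, 6 and 8. Without inhibitor MYH7 stood at 4.33, 4.29 and 4.27 in the early-window course and 4.31, 4.37 and 4.42 in the later-window course. It was not detected on any array without inhibitor, so IWP-2 gave at least 13.7-fold higher MYH7 in the early-window course and at least 1.6-fold in the later-window course. The effects differed by 3.06 (SE 0.22, adjusted p = 0.00451), and the day 8 level of the later-window course stayed below the day 5 level of the early-window course. ACTN2, the alpha-actinin of the Z disc, stood at 8.89, 9.22 and 10.33 with IWP-2 in the early-window course and 6.77, 8.05 and 8.97 with IWP-2 in the later-window course, on days 5, 6 and 8. Without inhibitor ACTN2 stood at 4.32, 4.17 and 4.38 in the early-window course and 4.47, 4.32 and 4.35 in the later-window course. ACTN2 was not detected on any of the arrays without inhibitor. Its effects differed by 1.64 (SE 0.26, adjusted p = 0.0236). TCAP, which anchors titin at the Z disc, had levels of 7.37, 7.97 and 8.60 with IWP-2 in the early-window course and 5.12, 5.80 and 7.28 with IWP-2 in the later-window course and was not detected without inhibitor, and its effects differed by 1.98 (SE 0.26, adjusted p = 0.0149). For ACTN2 and TCAP, as for MYH7, the IWP-2 arms lay apart, with a difference for ACTN2 of 1.55. The arms without inhibitor differed by -0.09 for ACTN2. These genes were at background in those arms, so a difference there could not be seen.

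MYL7, the atrial regulatory light chain that marks early cardiomyocytes throughout, had levels of 13.83, 13.89 and 13.94 with IWP-2 in the early-window course and 12.05, 13.06 and 13.69 with IWP-2 in the later-window course, on days 5, 6 and 8. Without inhibitor MYL7 stood at 9.85, 9.96 and 8.17 in the early-window course and 11.31, 10.82 and 10.59 in the later-window course. The effects differed by 2.54 (SE 0.47, adjusted p = 0.0363), but here the arm without inhibitor carried more of the difference, at -1.58 (adjusted p = 0.0264), than the IWP-2 arm, at 0.96 (adjusted p = 0.0674). MYH6, the fast heavy chain, was at 14.17, 14.17 and 14.17 with IWP-2 in the early-window course and 13.81, 14.03 and 13.96 with IWP-2 in the later-window course, on days 5, 6 and 8. Without inhibitor MYH6 stood at 5.19, 4.89 and 4.46 in the early-window course and 5.10, 4.40 and 4.64 in the later-window course. Its effects of 9.32 in the early-window course and 9.21 in the later-window course differed by 0.11 (SE 0.22, adjusted p = 0.832). With IWP-2, MYH6 sat at the top of the scale in the early-window course, where quantile normalization sets an upper limit, so a difference there may be understated. MYL3, named here after its values were seen, had the largest difference of the list at 4.06 (SE 1.23, adjusted p = 0.128) and did not pass.

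The windows upstream of 3 of the called genes and of MYH6 are printed because IWP-2 raised these genes in both courses on the mean of the 3 days. Whether they moved together was not tested. MYL7, PLN and NPPA had a difference between the IWP-2 windows that passed. MYH6 did not pass, at the upper limit of the scale. Each holds the 250 bases before the transcription start from RefSeq on GRCh38.p14, 5′ to 3′ on the gene's strand, where 48 of the 71 named genes had an entry. Capitals mark TATAAA (the TATA box), GATAA (a core of GATA factor sites) and CATTCC (the site of TEAD factors), each searched on both strands.
MYL7 (chr7:44141333-44141582, minus strand): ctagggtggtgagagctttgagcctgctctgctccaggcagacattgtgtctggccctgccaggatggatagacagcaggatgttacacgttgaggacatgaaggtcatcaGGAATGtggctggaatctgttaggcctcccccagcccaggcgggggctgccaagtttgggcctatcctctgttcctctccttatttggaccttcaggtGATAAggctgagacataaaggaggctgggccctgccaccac
PLN (chr6:118548046-118548295, plus strand): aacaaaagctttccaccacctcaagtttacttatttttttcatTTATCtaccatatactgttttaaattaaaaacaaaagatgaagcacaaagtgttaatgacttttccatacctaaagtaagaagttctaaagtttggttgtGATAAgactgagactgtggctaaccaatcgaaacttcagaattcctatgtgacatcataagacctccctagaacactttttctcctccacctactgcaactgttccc
NPPA (chr1:11847784-11848033, minus strand): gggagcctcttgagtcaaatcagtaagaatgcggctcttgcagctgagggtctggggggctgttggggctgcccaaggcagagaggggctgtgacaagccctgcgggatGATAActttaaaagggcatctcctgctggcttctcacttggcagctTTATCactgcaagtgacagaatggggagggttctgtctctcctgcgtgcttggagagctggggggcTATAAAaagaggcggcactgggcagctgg
MYH6 (chr14:23408274-23408523, minus strand): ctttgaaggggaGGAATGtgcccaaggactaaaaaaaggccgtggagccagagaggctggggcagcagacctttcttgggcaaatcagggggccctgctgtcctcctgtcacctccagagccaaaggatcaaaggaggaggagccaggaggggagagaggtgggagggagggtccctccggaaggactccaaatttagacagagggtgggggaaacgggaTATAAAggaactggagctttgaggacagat
GATAA occurred 1 time for MYL7, 2 times for PLN and 2 times for NPPA, and was not found for MYH6. TATAAA lay 29 bases before the start of NPPA and 30 before that of MYH6. CATTCC was present for MYL7 and MYH6. Of 35116 such windows, 20.4% held GATAA, 10.7% TATAAA and 11.9% CATTCC. These matches describe letters and not bound sites.

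**Figure D2:**
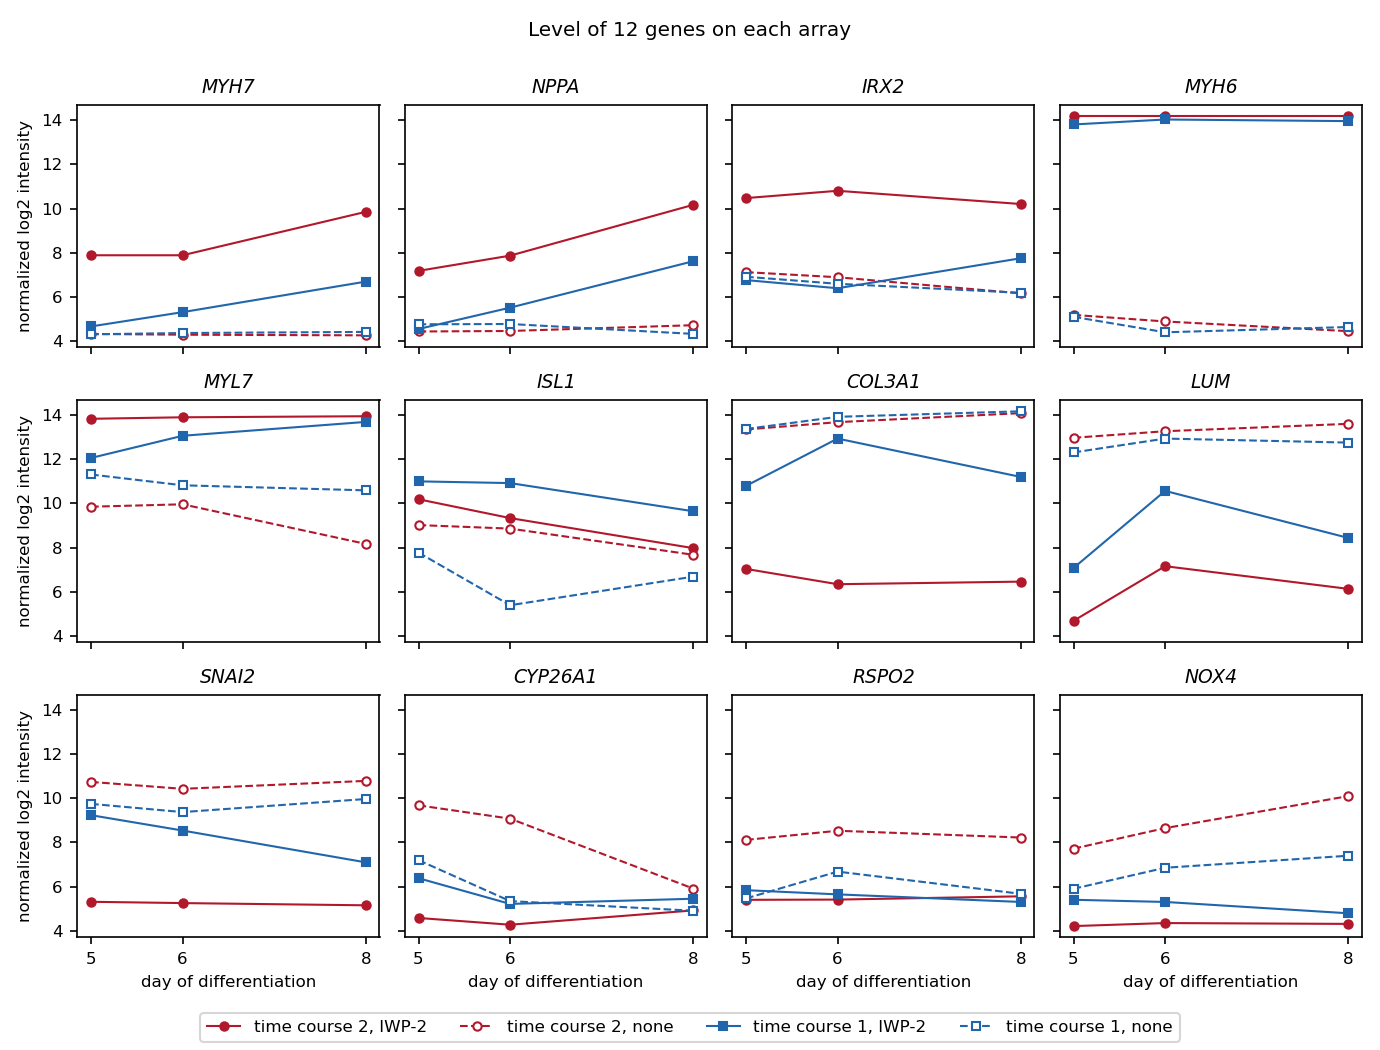
Each panel shows 1 gene, with the day of differentiation on the horizontal axis and the normalized log2 intensity on the vertical axis. Every point is 1 array, filled with IWP-2 and open without, red for the early-window course and blue for the later-window course. MYH7, NPPA and IRX2 are apart between the IWP-2 arms, COL3A1, LUM and SNAI2 are lower in the red IWP-2 arm, and CYP26A1, RSPO2 and NOX4 are higher in the red arm without inhibitor.

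Genes of the calcium handling and conduction list went both ways. Of 21 tested, 4 passed as higher in the early-window course, SLC8A1, CORIN, PLN and ATP2A2, against 0.867% of all genes, and 2 as lower, SLN and KCNA5, against 1.4%. The median difference was 0.63. SLC8A1, the sodium-calcium exchanger that removes calcium after a beat, had levels of 8.42, 8.83 and 8.99 with IWP-2 in the early-window course and 4.32, 5.44 and 6.47 with IWP-2 in the later-window course, on days 5, 6 and 8. Without inhibitor SLC8A1 stood at 4.21, 4.33 and 4.62 in the early-window course and 4.27, 4.18 and 4.23 in the later-window course. The bound on its effect was at least 15.8-fold in the early-window course and at least 1.44-fold in the later-window course, and the effects differed by 3.18 (SE 0.37, adjusted p = 0.0116). Another SLC8A1 probe gave 0.91 and did not pass. PLN, phospholamban, which restrains the calcium pump of the sarcoplasmic reticulum, stood at 10.03, 9.97 and 10.22 with IWP-2 in the early-window course and 7.55, 8.18 and 8.56 with IWP-2 in the later-window course, on days 5, 6 and 8. Without inhibitor PLN stood at 4.61, 4.29 and 4.52 in the early-window course and 5.58, 4.52 and 5.00 in the later-window course. For PLN the effects differed by 2.53 (SE 0.28, adjusted p = 0.00979), and a dimmer probe of PLN passed too, at 1.27. The pump itself, ATP2A2, had effects of 3.24 in the early-window course and 1.87 in the later-window course, which differed by 1.38 (SE 0.17, adjusted p = 0.0124). CORIN was counted in this list although it encodes the protease that activates pro-ANP and not a calcium handling protein. CORIN had effects of 3.42, 4.71 and 4.65 in the early-window course and 0.20, 2.19 and 1.34 in the later-window course, a difference of 3.02 (SE 0.42, adjusted p = 0.0167).

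SLN, sarcolipin, an atrial inhibitor of the same pump, was highest in the arms without inhibitor and had levels of 4.95, 5.75 and 6.64 with IWP-2 in the early-window course and 5.13, 7.24 and 7.58 with IWP-2 in the later-window course, on days 5, 6 and 8. Without inhibitor SLN stood at 9.90, 11.77 and 12.75 in the early-window course and 5.54, 9.80 and 11.18 in the later-window course. Its effects differed by -3.50 (SE 0.68, adjusted p = 0.04). The arms without inhibitor were 2.63 apart (adjusted p = 0.0187), whereas the IWP-2 arms differed by -0.87 (adjusted p = 0.214). KCNA5, the atrial Kv1.5 channel, was raised more in the later-window course. Its IWP-2 levels were 5.87, 6.33 and 5.91 in the early-window course and 8.00, 8.36 and 7.23 in the later-window course, and the effects differed by -1.89 (SE 0.34, adjusted p = 0.0343).

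NPPA, which encodes atrial natriuretic peptide, had levels of 7.18, 7.87 and 10.17 with IWP-2 in the early-window course and 4.55, 5.52 and 7.62 with IWP-2 in the later-window course, on days 5, 6 and 8. Without inhibitor NPPA stood at 4.44, 4.46 and 4.73 in the early-window course and 4.77, 4.78 and 4.33 in the later-window course. With IWP-2, the day 8 level of the later-window course lay between the day 5 and day 6 levels of the early-window course, and the effects differed by 2.59 (SE 0.24, adjusted p = 0.00903). NPPB, the related peptide, was higher in the early-window course in both arms. It stood at 8.44, 7.95 and 10.09 with IWP-2 in the early-window course and 6.99, 6.43 and 5.75 with IWP-2 in the later-window course, against 6.95, 8.45 and 8.11 without inhibitor in the early-window course and 5.55, 5.06 and 5.93 without inhibitor in the later-window course. The arms differed by 2.44 with IWP-2 and 2.32 without, and the effects by 0.11 (SE 0.78, adjusted p = 0.955). Of 7 genes of the natriuretic and strain list, MYH7 and NPPA passed as higher and none as lower, with 5 of 7 higher in the early-window course without inhibitor, against 4.63% of all genes.

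Of 25 progenitor regulators tested, IRX3 passed as higher, against 0.867% of all genes, and HEY1 and ISL1 as lower, against 1.4%. The median difference of the list was 0.28, and 15 of the 25 were positive. IRX2, an Iroquois homeodomain factor, had levels of 10.48, 10.80 and 10.21 with IWP-2 in the early-window course and 6.77, 6.40 and 7.75 with IWP-2 in the later-window course, on days 5, 6 and 8. Without inhibitor IRX2 stood at 7.12, 6.89 and 6.16 in the early-window course and 6.92, 6.60 and 6.19 in the later-window course. IWP-2 had an effect of 3.77 in the early-window course and 0.40 in the later-window course, and the difference was 3.36 (SE 0.43, adjusted p = 0.0146). IRX3, of the same family, differed by 1.82 (SE 0.37, adjusted p = 0.0486), with IWP-2 levels of 13.44, 13.41 and 13.21 in the early-window course and 11.78, 12.01 and 12.59 in the later-window course. IRX4, a ventricular factor named after its values were seen, differed by 2.78 (SE 0.65, adjusted p = 0.0665) and did not pass. Of 8 ventricular genes tested, MYH7 alone passed, and the median difference of the list was 1.45, the largest of 34 lists. Of 10 atrial genes, NPPA and MYL7 passed as higher and KCNA5 and SLN as lower, with a median of 0.04.

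ISL1 had levels of 10.19, 9.33 and 7.98 with IWP-2 in the early-window course and 11.00, 10.92 and 9.64 with IWP-2 in the later-window course, on days 5, 6 and 8. Without inhibitor ISL1 stood at 9.02, 8.86 and 7.67 in the early-window course and 7.77, 5.39 and 6.69 in the later-window course. IWP-2 had an effect of 0.65 on ISL1 in the early-window course and 3.90 in the later-window course, a difference of -3.25 (SE 0.60, adjusted p = 0.036). Both arms contributed, at -1.35 between the IWP-2 arms and 1.90 between the arms without inhibitor. HEY1, a NOTCH-induced repressor, had effects of -0.68, -0.41 and -1.37 in the early-window course and 2.45, 2.89 and 0.74 in the later-window course, which differed by -2.85 (SE 0.53, adjusted p = 0.0369), and its second probe gave -1.28 and did not pass. JAG1, a NOTCH ligand, was raised by 2.70 in the early-window course and 4.05 in the later-window course, with a difference of -1.35 (SE 0.26, adjusted p = 0.0381). NKX2-5, the core cardiac homeodomain factor, had IWP-2 levels of 11.70, 11.71 and 11.71 in the early-window course and 9.99, 10.86 and 12.03 in the later-window course and was not detected without inhibitor, and its effects differed by 0.86 (SE 0.45, adjusted p = 0.338). TBX5, a T-box factor of the first heart field, had IWP-2 levels of 4.87, 5.20 and 4.94 in the early-window course and 6.15, 5.76 and 6.10 in the later-window course and a difference of -1.04 (SE 0.24, adjusted p = 0.0665), just outside the threshold. HAND1 differed by 0.22 (SE 0.34, adjusted p = 0.771).

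Among fibroblast matrix genes, COL3A1, LUM, PDGFRB, FBLN1, COL1A1, COL1A2 and SPARC were lowered more in the early-window course. They are the 7 of 22 tested that passed as lower, against 1.4% of all genes, with 0 as higher and a median difference of -1.29. For 11 of the 22, all 3 daily effects in the early-window course lay below those of the later-window course, against 12.8% of all genes. The 7 calls became 4 with arrays not paired by day, 1 with the authors' values and 0 without day 5 or without day 6. They became 1 or 2 without a single array of an uninhibited group, 3 without an IWP-2 array of day 6 and 11 without an IWP-2 array of day 8. COL3A1, the chain of type III collagen, had levels of 7.04, 6.34 and 6.46 with IWP-2 in the early-window course and 10.79, 12.93 and 11.20 with IWP-2 in the later-window course, on days 5, 6 and 8. Without inhibitor COL3A1 stood at 13.34, 13.67 and 14.08 in the early-window course and 13.37, 13.92 and 14.17 in the later-window course. The arms without inhibitor differed by -0.12 and the IWP-2 arms by -5.03, and the effects differed by -4.91 (SE 0.60, adjusted p = 0.012), the largest of any gene that passed. On day 6 of the later-window course, in the array that also belongs to another series, the effect on COL3A1 was -0.98, against -2.57 on day 5 and -2.97 on day 8.

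LUM, the collagen-binding proteoglycan lumican, stood at 4.69, 7.16 and 6.13 with IWP-2 in the early-window course and 7.08, 10.56 and 8.44 with IWP-2 in the later-window course, on days 5, 6 and 8. Without inhibitor LUM stood at 12.97, 13.26 and 13.60 in the early-window course and 12.30, 12.93 and 12.75 in the later-window course. The effects differed by -3.31 (SE 0.31, adjusted p = 0.00903), and LUM passed in 25 of 29 alternative settings. This was the top of the range, as the count ran from 11 to 25 among the 52 named genes that passed. COL1A1 and ISL1 passed in 13, SLN in 12 and MYL7 in 11. A second LUM probe gave -1.17 and did not pass. COL1A1, a chain of type I collagen, had IWP-2 levels of 10.21, 8.61 and 8.43 in the early-window course and 11.96, 12.14 and 10.72 in the later-window course, and its effects differed by -2.08 (SE 0.41, adjusted p = 0.0424). FBLN1, a matrix glycoprotein, differed by -2.19 (SE 0.31, adjusted p = 0.0167), and of its 3 other probes 2 passed in the same direction. PDGFRB, a receptor of pericytes and fibroblasts, differed by -2.21 (SE 0.36, adjusted p = 0.0239). DCN, decorin, lay at background with IWP-2 in the early-window course, which limits how far it could fall there, and its difference of -3.03 (SE 0.84, adjusted p = 0.104) did not pass.

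SNAI2, a repressor of epithelial genes that drives mesenchymal transition, had levels of 5.31, 5.25 and 5.15 with IWP-2 in the early-window course and 9.23, 8.54 and 7.10 with IWP-2 in the later-window course, on days 5, 6 and 8. Without inhibitor SNAI2 stood at 10.74, 10.42 and 10.78 in the early-window course and 9.74, 9.37 and 9.96 in the later-window course. The 3 IWP-2 levels of the early-window course lay below every other array. For SNAI2 the effects differed by -4.002 (SE 0.44, adjusted p = 0.00979), and both SNAI2 probes passed. EFEMP1, a fibulin, had effects of -3.28 in the early-window course and -0.33 in the later-window course and differed by -2.95 (SE 0.46, adjusted p = 0.0229). CCDC3 had effects of -3.92, -3.30 and -3.19 in the early-window course and -0.03, 1.09 and -1.46 in the later-window course, a difference of -3.34 (SE 0.47, adjusted p = 0.0167). Its arms without inhibitor differed by -0.18.

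A difference between effects can come from the IWP-2 arms or from the arms without inhibitor, and both occurred. Over all genes, 3013 differed between the courses with IWP-2, or 23.8% (11% higher and 12.7% lower in the early-window course), and 1262 without it, or 9.95% (4.63% higher and 5.32% lower). Among the 110 genes higher in the early-window course, 88 passed in the IWP-2 arms only, 12 in the arms without inhibitor only and 10 in both. Among the 178 lower genes, the counts were 107, 46 and 24, and 1 passed in neither. Some genes were at background in both courses within an arm, MYH7 without inhibitor and PRRX1 with IWP-2. For such genes a difference could be seen only in the other arm. The median difference between IWP-2 arms was 1.25 for the higher genes and -0.96 for the lower, and between arms without inhibitor it was -0.17 for the higher genes and 0.53 for the lower. The differences of the arms had opposite signs for 85 of the 110 and 141 of the 178, against 32.5% of all genes, which choosing genes on the difference of the arms favours. The arms without inhibitor received the same factors in both courses, per the labels.

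**Figure D3:**
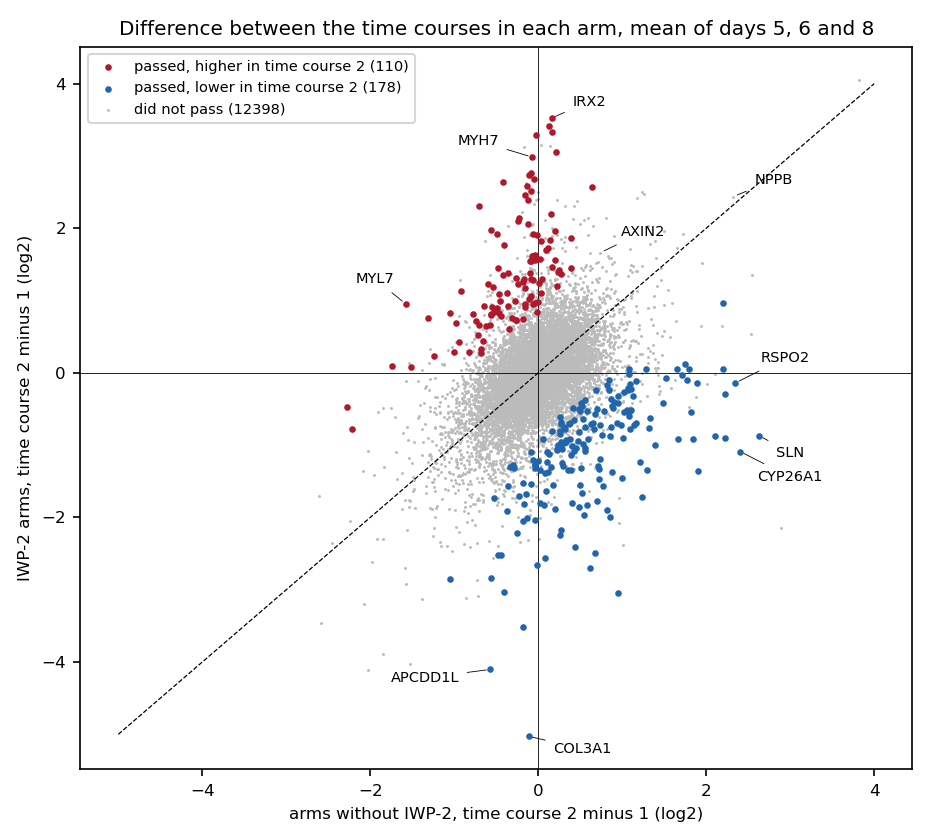
The vertical axis is the early-window course minus the later-window course with IWP-2 and the horizontal axis the same without inhibitor, as log2 means of days 5, 6 and 8. Each point is a gene, coloured as passed higher, passed lower or not passed, and the dashed line marks an equal shift of both arms. COL3A1 and MYH7 lie near 0 on the horizontal axis, SLN, CYP26A1 and RSPO2 lie at 2.35 to 2.63 on it, and NPPB lies on the dashed line. MYH7 was not detected without inhibitor, so its horizontal value rests on levels at background.

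CYP26A1, which breaks down retinoic acid and is itself induced by it, had levels of 4.58, 4.28 and 4.92 with IWP-2 in the early-window course and 6.38, 5.22 and 5.45 with IWP-2 in the later-window course, on days 5, 6 and 8. Without inhibitor CYP26A1 stood at 9.68, 9.07 and 5.91 in the early-window course and 7.19, 5.34 and 4.91 in the later-window course. The arms without inhibitor differed by 2.40 (adjusted p = 0.0194) and the IWP-2 arms by -1.09 (adjusted p = 0.105), and the effects differed by -3.49 (SE 0.62, adjusted p = 0.0343). The difference was smallest on day 8, and 2 dimmer probes had the same sign and did not pass. No other gene of the retinoic acid list passed, of 11 tested. The 250 bases before the start of CYP26A1 are shown because they hold the retinoic acid response element for which this gene is known, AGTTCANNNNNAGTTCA, here on the opposite strand, in capitals with TATAAA.
CYP26A1 (chr10:93073643-93073892, plus strand): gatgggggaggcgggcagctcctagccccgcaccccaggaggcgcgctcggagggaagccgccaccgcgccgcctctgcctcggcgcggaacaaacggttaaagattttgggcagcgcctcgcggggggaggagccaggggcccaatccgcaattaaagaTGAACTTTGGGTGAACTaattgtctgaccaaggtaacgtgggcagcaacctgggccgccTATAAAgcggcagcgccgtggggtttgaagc
The element begins 90 bases before the start and occurred in 3 of the 35116 windows. CYP26A1 has 2 RefSeq windows and the other one lacks these letters.

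RSPO2, a secreted protein that strengthens WNT signalling at the receptor, stood at 5.40, 5.41 and 5.56 with IWP-2 in the early-window course and 5.84, 5.65 and 5.31 with IWP-2 in the later-window course, on days 5, 6 and 8. Without inhibitor RSPO2 stood at 8.11, 8.53 and 8.22 in the early-window course and 5.46, 6.68 and 5.67 in the later-window course. Only the early-window course without inhibitor stood apart, above every other array. For RSPO2 the effects differed by -2.49 (SE 0.28, adjusted p = 0.00979), and both probes passed. NOX4, an oxidase that makes hydrogen peroxide, had levels of 7.72, 8.65 and 10.09 without inhibitor in the early-window course and 5.90, 6.85 and 7.40 in the later-window course. It was not detected with IWP-2 in the early-window course, which makes it at least 15.3-fold lower with IWP-2 there, and its effects differed by -2.98 (SE 0.30, adjusted p = 0.00963). NOX4 passed in 25 of 29 alternatives. RPRM, reprimo, which arrests the cell cycle downstream of p53, had levels of 7.77, 7.34 and 6.13 without inhibitor in the early-window course and 4.88, 4.42 and 5.25 in the later-window course, and its effects differed by -3.13 (SE 0.50, adjusted p = 0.0235).

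For 38 of the 288 genes every daily effect had one sign in the early-window course and the other sign in the later-window course. Choosing genes on the difference of the effects favours this, and the share over all genes was not counted. Mean effects had the same sign for 74.0% of the 288 and 74.1% of all genes. Of those described here, KLF9 and APCDD1L passed as changed by IWP-2 in both courses. GPR37 passed in the later-window course only, and TYROBP, LAMB1 and ALB in the early-window course only. GPR37, an orphan G protein-coupled receptor, had levels of 6.61, 6.59 and 7.05 with IWP-2 in the early-window course and 9.15, 9.73 and 8.85 with IWP-2 in the later-window course, on days 5, 6 and 8. Without inhibitor GPR37 stood at 6.93, 7.07 and 7.75 in the early-window course and 6.91, 6.26 and 6.54 in the later-window course. Its daily effects were -0.32, -0.47 and -0.70 in the early-window course and 2.24, 3.48 and 2.31 in the later-window course, and they differed by -3.17 (SE 0.39, adjusted p = 0.0124). GPR37 passed in 23 of 29 alternatives. APCDD1L had effects of -0.69, -1.66 and -1.72 in the early-window course and 2.77, 2.96 and 0.80 in the later-window course on the same days, and differed by -3.53 (SE 0.50, adjusted p = 0.0178). KLF9, a Krüppel-like factor induced by steroid and thyroid hormones, went the other way, with effects of 2.15, 1.56 and 2.59 in the early-window course and -0.87, -1.06 and -1.72 in the later-window course, and a difference of 3.32 (SE 0.49, adjusted p = 0.02). TYROBP, an adaptor of immune receptors, had effects of 2.77, 2.26 and 2.27 in the early-window course and -0.07, -0.21 and -0.98 in the later-window course. It was detected on 3 IWP-2 arrays of the early-window course and 0 of the later-window course, and its effects differed by 2.85 (SE 0.31, adjusted p = 0.00979). LAMB1, a laminin chain, had effects of -1.31, -1.80 and -1.34 in the early-window course and 0.29, 1.11 and 0.15 in the later-window course and a difference of -1.999 (SE 0.32, adjusted p = 0.0239). Its second probe gave -1.31 and did not pass. ALB, albumin, lay near background throughout, between 4.48 and 5.93, and differed by 1.37 (SE 0.23, adjusted p = 0.0304).

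Of 20 WNT targets tested, APCDD1 passed as higher and BMP4 as lower, with a median of -0.22, and of 18 ligands and secreted modulators WNT2 passed as higher and RSPO2 as lower. Over all genes 0.867% passed as higher and 1.4% as lower. AXIN2, a feedback inhibitor and general WNT target, stood at 9.27, 9.59 and 9.67 with IWP-2 in the early-window course and 7.55, 7.91 and 8.08 with IWP-2 in the later-window course, on days 5, 6 and 8. Without inhibitor AXIN2 stood at 9.18, 9.26 and 9.00 in the early-window course and 8.23, 8.38 and 8.61 in the later-window course. It was higher in the early-window course in both arms, by 1.66 with IWP-2 (adjusted p = 0.00114) and 0.74 without (adjusted p = 0.0227), and the difference of its effects was 0.92 (SE 0.21, adjusted p = 0.06). LEF1, a partner of beta-catenin, differed by -0.35 (SE 0.33, adjusted p = 0.595). APCDD1, a WNT-induced inhibitor of WNT receptors, was not detected with IWP-2 in the later-window course, and its effects differed by 1.64 (SE 0.31, adjusted p = 0.0369). WNT2, a ligand of the early heart, was raised by IWP-2 in both courses and had levels of 10.97, 11.46 and 10.90 with IWP-2 in the early-window course and 7.38, 8.61 and 9.58 with IWP-2 in the later-window course, on days 5, 6 and 8. Without inhibitor WNT2 stood at 4.90, 4.55 and 4.91 in the early-window course and 4.56, 4.67 and 5.55 in the later-window course. The effects differed by 2.73 (SE 0.53, adjusted p = 0.0406).

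IWP-2 lowered 13 of 14 HOX genes in the early-window course, against 19.6% of all genes, and 11 of 14 in the later-window course, against 9.62%. Only 1 HOX gene differed between the windows. The 14, of 20 with a probe, include anterior genes, such as HOXA2 and HOXB3 with early-window effects of -1.60 and -1.76. Some, such as HOXB8, met the detection filter mainly through the arms without inhibitor, which favours a lower level with IWP-2. HOXB5 had levels of 6.23, 6.41 and 6.16 with IWP-2 in the early-window course and 9.91, 10.13 and 7.85 with IWP-2 in the later-window course. Without inhibitor HOXB5 stood at 11.04, 11.24 and 11.09 in the early-window course and 11.47, 11.59 and 11.51 in the later-window course, and its effects had a difference of -2.63 (SE 0.49, adjusted p = 0.0369). PITX1, a hindlimb homeodomain factor, was not detected with IWP-2 in the early-window course, at least 254-fold below its arm without inhibitor, and differed by -2.72 (SE 0.53, adjusted p = 0.0418). PRRX1, of limb mesenchyme, differed by -1.28 (SE 0.21, adjusted p = 0.0265), but it was not detected on any IWP-2 array, so this mirrors the 1.16 between the arms without inhibitor, and a dimmer PRRX1 probe gave 0.11. CDX2 was not detected on any IWP-2 array either, at least 8.86-fold lower with IWP-2 in the early-window course and at least 6.92-fold lower in the later-window course, so its effects could not be told apart. HOXB8 differed by -1.60 (SE 0.46, adjusted p = 0.114) and MSX1 by -0.62 (SE 0.47, adjusted p = 0.514). BMP4 differed by -1.32 (SE 0.25, adjusted p = 0.0407) and BMP2, raised by IWP-2 in both courses, by 0.53 (SE 0.44, adjusted p = 0.545).

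Of 13 epicardial genes tested 2 passed as lower, against 1.4% of all genes, and 0 as higher, with a median difference of -0.85. BNC1, a zinc finger protein of epicardium and other epithelia, had effects of -4.05 in the early-window course and -2.41 in the later-window course and a difference of -1.63 (SE 0.22, adjusted p = 0.0148), and 1 of its 3 other probes passed. KRT19, a keratin of simple epithelia, had IWP-2 levels of 11.54, 11.26 and 11.23 in the early-window course and 12.62, 12.13 and 12.39 in the later-window course, and differed by -1.49 (SE 0.19, adjusted p = 0.0132). TBX18, of epicardium and sinus horn, had IWP-2 levels of 4.46, 4.32 and 4.74 in the early-window course and 7.01, 8.44 and 5.30 in the later-window course, but its difference of -1.60 (SE 0.84, adjusted p = 0.345) did not pass. WT1 differed between the courses in both arms, by -1.63 with IWP-2 and -1.49 without, and its effects differed by -0.14 (SE 0.51, adjusted p = 0.911). SMOC2, a matrix protein counted with sinus node genes, differed by -2.04 (SE 0.39, adjusted p = 0.0395). HCN4, the pacemaker channel, differed by 0.13 (SE 0.20, adjusted p = 0.777). Of 24 endothelial and blood genes none passed, and the median difference was -0.50, with 6 of the 24 positive. For 10 of them all 3 daily effects in the early-window course lay below those of the later-window course, against 12.8% of all genes. For 3 they lay above, against 12.2%. KDR, among the positive ones, differed by 0.59 (SE 0.26, adjusted p = 0.262).

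**Figure D4:**
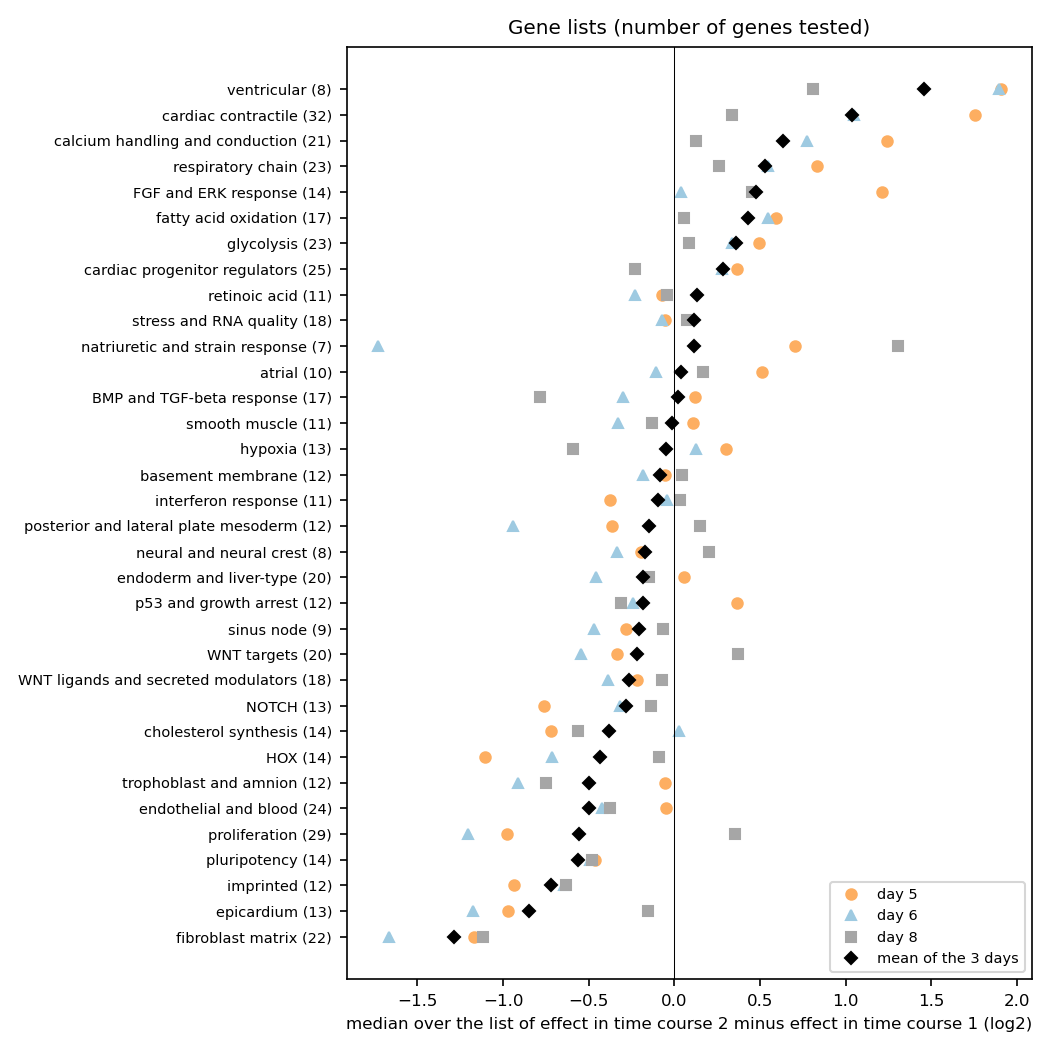
Each row is 1 of 34 gene lists with the number of genes tested, and the horizontal axis is the median over its genes of the early-window effect minus the later-window effect on the log2 scale. Coloured marks give days 5, 6 and 8 and the black diamond the mean of the days. The ventricular and contractile lists lie farthest right at 1.45 and 1.04, with day 5 above day 8, and the fibroblast matrix list farthest left at -1.29.

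List medians moved with the day, as the plot of list medians shows. The contractile median was 1.76 on day 5, 1.05 on day 6 and 0.34 on day 8, whereas the matrix median was -1.17, -1.66 and -1.12. Cell cycle genes had a median of -0.98 on day 5, -1.20 on day 6 and 0.35 on day 8, and none of 29 passed. TOP2A, the topoisomerase of dividing cells, had IWP-2 levels of 8.82, 7.07 and 7.49 in the early-window course and 11.12, 10.21 and 8.68 in the later-window course, and its effects differed by -1.26 (SE 0.43, adjusted p = 0.164). In the IWP-2 arms 20 of the 29 were lower in the early-window course, against 12.7% of all genes, and in the arms without inhibitor 3 of the 29 were, against 5.32%. Respiratory chain genes had a median of 0.53 and 21 of 23 positive differences, and 1 passed, COX6A2, the heart isoform of a cytochrome oxidase subunit, at 1.67 (SE 0.32, adjusted p = 0.0374). Of 12 imprinted genes H19, a noncoding RNA of growing tissue, passed. It had IWP-2 levels of 9.72, 8.89 and 9.51 in the early-window course and 12.21, 12.80 and 11.09 in the later-window course. Without inhibitor H19 stood at 13.61, 13.54 and 13.64 in the early-window course and 13.49, 13.69 and 13.66 in the later-window course, and its effects differed by -2.64 (SE 0.50, adjusted p = 0.0369). Of 11 interferon genes BST2 and IFIT1 passed as lower, at -1.73 (SE 0.22, adjusted p = 0.0124) and -1.86 (SE 0.25, adjusted p = 0.0148), and a dimmer IFIT1 probe gave -0.21. None of 18 stress genes passed, the list that includes signs of RNA quality, and GAPDH differed by 0.21 (SE 0.21, adjusted p = 0.624).

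IWP-2 was given a day earlier in the early-window course, so the days were also counted from its first addition, setting days 4 and 5 of the early-window course against days 5 and 6 of the later-window course. No gene passed in this smaller comparison (limma, adjusted p below 0.05), and 978 had an unadjusted p below 0.05. Of the 110 higher genes 103 had the same sign, with a median of 0.75 against 1.52 in the main comparison. Of the 178 lower genes 174 had the same sign, with a median of -0.91 against -1.53. These 288 genes were chosen on the main comparison, which shares the day 5 arrays and, in the later-window course, the day 6 arrays, so the counts are a description. The contractile median was 0.20 counted this way and the matrix median -0.76. ACTN2 moved to -0.23 and MYL7 to 0.64, whereas MYH7 stood at 1.77, IRX2 at 1.96, COL3A1 at -4.64 and GPR37 at -2.62.

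Levels in the IWP-2 arms were also followed to the last day. Of the 97 higher genes that were also higher between the IWP-2 arms, 16 had reached by day 8 of the later-window course the level of day 5 in the early-window course. By the same day 7 had reached the day 6 level and 0 the day 8 level. These genes were chosen for lying apart between the IWP-2 arms over days that include day 8, so low counts follow from the choice and are a description. Of the 130 lower genes that were also lower between the IWP-2 arms, 13 had reached the day 5 level, 8 the day 6 level and 0 the day 8 level. The differences were smaller on day 8 than on day 5 for 71 of the 110 higher and 105 of the 178 lower genes. The share over all genes was not counted, the genes were chosen on these same days, and day 8 holds the dim array.

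**Figure D5:**
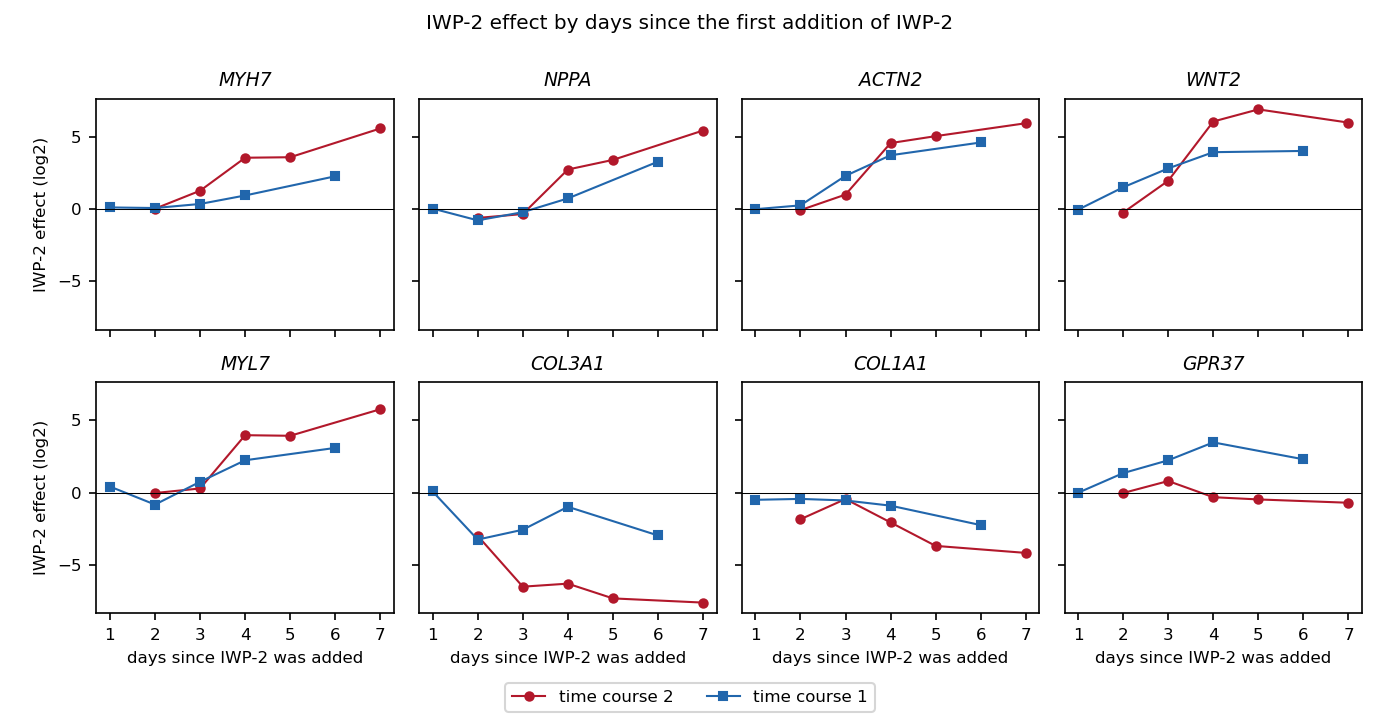
Each panel shows 1 gene, with days since IWP-2 was first added on the horizontal axis and the IWP-2 effect (log2 IWP-2 minus no inhibitor on the same day) on the vertical axis, red for the early-window course and blue for the later-window course, 1 pair of arrays per point. At 3 and 4 days the lines of ACTN2 cross, that of MYH7 is higher and that of COL3A1 lower in the early-window course, and GPR37 is positive only in the later-window course from 4 days on.

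The remaining named genes higher in the early-window course were KLHL14, CCDC60, NMRK2, SORCS1 and HSPB2, with differences between 2.74 and 3.29. HSPB2, a small heat shock protein of heart and skeletal muscle, had IWP-2 levels of 10.41, 10.44 and 10.08 in the early-window course and 6.69, 7.52 and 8.66 in the later-window course. NMRK2, a muscle kinase of NAD synthesis, stood with IWP-2 at 8.43, 7.71 and 7.40 in the early-window course and 4.66, 5.17 and 5.51 in the later-window course, and both its probes passed. The remaining fixed genes, PDGFRA and AFP, differed by -0.63 (SE 0.31, adjusted p = 0.314) and -0.28 (SE 0.44, adjusted p = 0.778), and PODXL, a sialomucin of pluripotent cells and podocytes, by -1.33 (SE 0.27, adjusted p = 0.0445).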

How the data were processed

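Illumina bead arrays measured biotin-labelled RNA amplified from total RNA, per the labels' protocols. Each probe has, per the file headers of the deposited scanner table, a signal intensity and a detection p-value for every array. The submitters' processing notes name GenomeStudio, with no version. Those intensities were neither background corrected nor normalized, judged from the values. A second deposited table holds the authors' processed intensity values on a linear scale, with a median of 6.88 on every array of time course 1 and 4.63 on every array of time course 2, so the 2 courses look normalized apart. How it was normalized is not given in the sources here, and it served as an alternative.

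Of 47323 probes, 1 gene symbol was given for 30113 and several for 8, and 17202 were unlisted. Entrez identifiers of 30074 matched the RefSeq table, and 144 probes of Y-linked genes and XIST were left out. The function neqc of limma 3.58.1 (R 4.3.3, offset 16) corrected the background of all 27 arrays and quantile normalized them to log2 values. Probes detected at p below 0.01 on at least 2 of the 12 arrays were kept, and each gene was represented by its brightest probe on average, giving 12686 genes. One linear model (lmFit, eBayes) held 6 means of day and arm, the time course, and the time course by inhibitor term, which is the result, with 4 residual degrees of freedom. The day paired the arrays of the courses because the labels give it, and the daily deviations of the effects from their course mean correlated between the courses at 0.33 on day 5, -0.03 on day 6 and 0.32 on day 8. The Benjamini-Hochberg adjustment over all 12686 genes was used, at 0.05. Where a gene was not detected on any array of the dimmer arm, the fold is a lower bound against the lowest detected value.

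Named genes were the 12 largest differences per direction that passed with 1 sign on all days and detection on at least 3 arrays, up to 4 passing members of each of 34 lists (497 of 619 list genes tested), and a fixed set, of which MYL2 was not tested. Members, lists and tests were chosen with earlier results of these data known. The fit was tested on simulated data. Alternatives covered pairing, arrays, normalization, background, filters, probes, variance model, weights, days, single arrays and alignment of days. No slide is named in the files.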

Additional observations from a re-analysis of the deposited data

Results flagged for a closer look

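The IWP-2 effect differed between the early-window and the later-window course for 288 genes by the test of the difference itself (limma's time course by inhibitor term). For 38 of them every daily effect had one sign in the early-window course and the other in the later-window course. Choosing genes on the difference of the effects favours this, and the share over all genes was not counted. Among the named genes these were KLF9 at 3.32, TYROBP at 2.85 and ALB at 1.37, all higher in the early-window course, and APCDD1L at -3.53, GPR37 at -3.17, RPRM at -3.13, HEY1 at -2.85 and LAMB1 at -1.999, all lower. Of these, only KLF9, APCDD1L and RPRM had an effect that passed in each course. The later-window effect did not pass for TYROBP, ALB and LAMB1, nor the early-window effect for GPR37 and HEY1. Each value is the difference of the effects on the log2 scale, and each group held 3 arrays, so single arrays could not be set apart from their group.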

How the results depend on the processing

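The count of 288 genes depended on the settings. It was 82 with no replicate block (arrays not paired by day), 1212 with all 27 arrays in the fit, 513 with median scaling, 43 with the authors' processed values, 125 with no detection filter, 1998 with array weights and 18 at an adjusted p below 0.01. By limma it was 0 without day 5, 0 without day 6 and 0 with days counted from the start of IWP-2 (2 days in place of 3), where 1678, 1100 and 978 genes had an unadjusted p below 0.05, and 809 without day 8. Leaving out single arrays gave 14 to 940, and either array of a day and arm gave the same fit, since its lone partner then carries no weight: 132, 46 and 940 without an IWP-2 array of days 5, 6 and 8, and 18, 14 and 77 without an array of the same days that received no inhibitor. Without single arrays the effect counts ran from 2955 to 5140 in the early-window course and from 932 to 3042 in the later-window course. The course differences ran from 796 to 3330 with IWP-2 and from 54 to 1810 without, where all 27 arrays gave 3203. The authors' values, which look normalized apart by course, gave 1608 genes with an effect in the later-window course and 511 course differences without IWP-2. The contractile median was above 0 and the matrix median below 0 in all 29 alternatives, but these are not 29 separate checks. Both medians stayed at 1.04 and -1.29 without pairing by day, with every probe on its own and with the other variance model. The fits without single arrays came in identical pairs. The contractile median was 0.20 counted from the start of IWP-2. The matrix median was -0.98 without background correction, -1.64 with the authors' values, -1.64 with array weights, -0.76 counted from the start of IWP-2, and ran from -1.63 to -1.15 without single arrays. Of the 52 named genes that passed, 2 changed sign in 1 value each, ACTN2 at -0.23 and APCDD1 at -0.10, both counted from the start of IWP-2. Of the 19 that did not pass, 11 changed sign in 45 values, none of which passed, among them NPPB, WT1 and MYH6. Of the other named gene values 1329 kept sign and side of the threshold, 652 no longer passed and 26 newly passed. Among the 52 named genes that passed, LUM and NOX4 passed in the most alternatives, 25 of 29. MYL7, PITX1, PODXL, JAG1 and COX6A2 passed in the fewest, 11. The causes were not tested. Dim probes limit what can be seen: folds against undetected arms are bounds.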

Other observations

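Lists not described above had few genes that passed. Of 23 glycolysis genes none passed, with a median difference of 0.36, although IWP-2 raised 19 of them in the early-window course, against 17.5% of all genes, and 20 in the later-window course, against 10.1%. Of 17 fatty acid oxidation genes none passed, with a median of 0.43, and 9 were higher in the early-window course with IWP-2, against 11% of all genes. Of 14 genes of the FGF and ERK response none passed, with medians of 1.21 on day 5, 0.04 on day 6 and 0.45 on day 8. Of 14 pluripotency genes PODXL passed as lower, and the median was -0.56 with 0 positive differences. Of 20 endoderm and liver-type genes ALB passed as higher, with a median of -0.18. Of 14 cholesterol synthesis genes, 13 hypoxia genes, 12 genes of p53 and growth arrest, 11 smooth muscle genes and 8 neural genes none passed in either direction, with medians of -0.38, -0.05, -0.18, -0.02 and -0.17. Across all lists the tool for these counts was limma at an adjusted p below 0.05, and over all genes 2428 of 12686 had an unadjusted p below 0.05.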
